A study of Mus musculus with 4 samples.

Results

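In LSK cells, the lineage-negative Sca-1+ c-Kit+ bone marrow fraction that holds hematopoietic stem cells (HSCs) and early progenitors, 14 of 41174 array probes were well above background and at or over a set level in both control samples and not well above background in either *Meis1*-deficient sample. They carry 13 names, among them *Trib2* with 2 probes, the organic cation transporter *Slc22a3*, the chemokine *Cxcl12*, the phosphatase subunit *Ppp1r16b* and the transcription factors *Hnf4a* and *Pou6f1*. The probes were selected on the measured values themselves. Each had to carry the scanner software's "well above background" flag on both control arrays and lack it on both *Meis1*-deficient arrays, and each had to reach a log2 level of -2.5 on both control arrays. A log2 level is the log2 of the background-subtracted signal of a probe minus that of the array's 75th percentile, so that 0 is the 75th percentile of the array. Probes in the immunoglobulin heavy and kappa loci were left out. Because the selection read the contrast between genotypes, the levels and differences of these probes are a description, and no test of them is taken as support.

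Meis1 is a homeodomain transcription factor of the TALE family that works with Pbx partners and is active in HSCs and their nearest progeny. A homeodomain factor binds short DNA motifs and can raise or lower the transcription of the genes nearby. A transcript of low abundance lies close to the background of an array, so a fall can take its probe from detected to not detected. That border is where the probes described here lie.

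*Meis1*-deficient LSK cells were taken from *Meis1* fl/fl mice with the Mx1-Cre transgene, and control cells from *Meis1* fl/fl animals that lacked it, both on C57BL/6J. All mice carried the floxed allele, in which exon 8 with the homeodomain is flanked by loxP sites. Mice were 4 to 8 weeks old at induction, which used 4 intraperitoneal doses of 1.5 ug/g poly(I:C), an inducer of interferon that switches on the Mx1 promoter, and LSK cells were sorted 1 week later. Both poly(I:C) and a sham treatment are given for the control animals in different places of the study and its labels, and if it was a sham, genotype and injection cannot be told apart. Mx1-Cre acts in many tissues that respond to interferon and is not limited to HSCs. Each genotype was represented by 2 pools of 6 mice with 1 array per pool. The arrays numbered 1 shared a slide, as did those numbered 2.

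On the brighter *Meis1* probe the log2 level was 0.25 and 0.22 in *Meis1*-deficient cells against 1.02 and 1.45 in control cells. The dimmer *Meis1* probe stood at -2.46 and -3.54 against -1.55 and -1.06. Whether either probe lies in the deleted exon was not examined here. Of the LSK markers, *Kit*, *Ly6a*, *Cd34*, *Tek*, *Slamf1* and *Gata2* were detected on all 4 arrays. *Flt3*, the receptor of progenitors within the LSK gate, was at -2.32 and -4.72 in *Meis1*-deficient cells, not detected in the second, and at -0.19 and -0.19 in control cells. In sorted pools, fewer cells of a type and less RNA per cell cannot be told apart, which applies to every value below. *Meis1*-deficient sample 2 was the dimmest array, with 49.2% of spots well above background against 54.7% to 57.4% on the others.

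The probes are 60 bases long, and 30 bases of those on which the description turns are given here, 5′ to 3′ as spotted. The *Hnf4a* probe detected on all arrays is shown beside the one that was not, and capitals mark AATAAA, the hexamer of the usual polyadenylation signal.
Slc22a3 (A_52_P527822): agtcagttgtattcaaacttaaaagaatta
Trib2 (A_51_P103819): agccttggcattgcactgttagcatttaac
Trib2 (A_52_P220810): actctggcttttctattgctgtatgataca
Ppp1r16b (A_51_P155294): agacagctttctgaccactcctagataaca
Cxcl12 (A_51_P172502): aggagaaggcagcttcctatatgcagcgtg
Hnf4a (A_52_P683991, control only): tattacagtacagggaacatggAATAAAgg
Hnf4a (A_51_P198473, all 4 arrays): ctggactcctctcaagttgaagtcatcgtc
Pou6f1 (A_51_P348857): cacacgtgagtttggaatgagaacacctga
Cd300lf (A_52_P422494, bases 31 to 60): attgtagaagAATAAAgttgtattgttttt
K02899 (A_51_P354616): agattttcttcccttcAATAAAgaaagatg
AATAAA occurred in 3 of the 14 probes, those of *Hnf4a*, *Cd300lf* and the T-cell receptor gamma transcript K02899, and in 4.78% of all probes. The median GC content was 36.7% in the 14 probes and 40% over the array.

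*Trib2*, a Tribbles pseudokinase known to promote degradation of the myeloid factor C/EBPα, was the single gene with 2 of its probes selected. The first *Trib2* probe (mm9 chr12:15800004-15800061, minus strand) had log2 levels of -4.83 and -5.30 in *Meis1*-deficient samples 1 and 2 and of -1.99 and -0.53 in control samples 1 and 2. The second (chr12:15799009-15799068) stood at -4.60 and -3.36 against -1.99 and -1.60. On both probes the control samples lay above the *Meis1*-deficient ones with no overlap, as the selection requires, and on the first the control samples were far apart from each other. A probe that is not well above background is poorly measured there, so its fold is given by a cautious measure, called a bound here. The mean of the control arrays was set against a mean over the *Meis1*-deficient arrays. In the latter, each array gave the higher of the probe's own level and the lowest level detected on that array. That lowest level, -4.20 in sample 1 and -3.25 in sample 2, is not a strict limit, since some undetected probes lay above it. The words at least therefore refer to this measure and not to a guaranteed minimum. By this measure the first *Trib2* probe was at least 5.54-fold lower in *Meis1*-deficient cells, or 9.20-fold without control sample 1 and 3.34-fold without control sample 2, and the second at least 3.81-fold lower. Among its relatives, *Trib1* was detected on all 4 arrays, at 1.64 and 0.72 in *Meis1*-deficient and 2.04 and 0.97 in control cells, with differences on each slide smaller than the gap between the slides. *Trib3* was detected on 1 slide only, in both genotypes.

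*Slc22a3* encodes a plasma membrane transporter that moves organic cations and monoamines. Its only probe (chr17:12613372-12613431, minus strand) read -4.48 and -2.97 in *Meis1*-deficient cells against -1.55 and -0.06 in control cells. Sample 2 was above sample 1 in both genotypes, and the control mean was -0.81 ± 1.05 (SD, n = 2). The bound was a fall of at least 6.87-fold, the largest among the 14 probes, and it became 11.5 without control sample 1, 4.10 without control sample 2, 4.48 without *Meis1*-deficient sample 1 and 10.5 without *Meis1*-deficient sample 2. For the 12 probes other than this one and the first of *Trib2*, leaving out 1 array moved the bound by less than 1.5 times. The related transporter gene *Slc22a2* was not well above background on any array.

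*Ppp1r16b* encodes a membrane-associated regulatory subunit of protein phosphatase 1. The selected probe (chr2:158590244-158590303) was at -4.82 and -4.93 in *Meis1*-deficient cells against -0.95 and -1.72 in control cells, at least 5.24-fold lower. The other 2 probes of the gene were detected in both control samples and in *Meis1*-deficient sample 1. One, A_52_P449974, stood at -3.28 and -3.90 against -0.67 and -1.78, and the other, A_52_P304105, at -2.86 and -5.22 against -1.06 and -1.42. All 3 *Ppp1r16b* probes thus had both control samples above both *Meis1*-deficient ones, and 2 of them were not selected because *Meis1*-deficient sample 1 still gave signal. The related *Ppp1r16a* was detected in control sample 2 alone.

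*Cxcl12* is the chemokine that bone marrow stromal cells secrete to retain HSCs through the receptor Cxcr4. The selected probe (chr6:117131227-117131286) read -4.26 and -3.53 in *Meis1*-deficient and -1.10 and -1.64 in control cells, at least 5.11-fold lower. The second *Cxcl12* probe, 6753 bases upstream and annotated to another transcript of the gene, was not well above background on any of the 4 arrays. *Cxcr4* was detected throughout, at 3.70 and 4.80 in *Meis1*-deficient cells against 4.47 and 3.57 in control cells, which overlap. The other receptor, *Cxcr7*, was not detected on any array. *Cxcl12* belongs to a list of 35 stromal and endothelial markers, of which 17 were detected in both control samples and 12 in both *Meis1*-deficient samples. Over the whole array, 21437 of 41174 probes were detected in both control and 19425 in both *Meis1*-deficient samples. The summed level of the 35 stromal and endothelial markers, in multiples of the 75th percentile signal, was 26.5 and 26.1 in control samples 1 and 2 and 21.9 and 15.7 in *Meis1*-deficient cells. Without 1 gene, *Eltd1*, left out after seeing the data, it was 16.9 and 16.1 against 17.9 and 12.5, which overlap. Of the 35, 14 were not well above background on any array, among them *Kitl*, *Lepr*, *Col1a1*, *Pdgfra*, *Cdh5* and *Dcn*. Others were detected on all 4 arrays. *Col1a2* was at 0.53 and 0.68 in *Meis1*-deficient against 0.26 and 1.04 in control cells, and *Pdgfrb* at 0.42 and 1.74 against 1.07 and 1.07. Of the 11 markers detected on all 4 arrays, 8 had a lower mean in *Meis1*-deficient cells and 3 a higher one, from -1.76 for *Timp3* to 0.84 for *Bgn*, with a median of -0.44 and 0 meeting the criteria described below. Of all probes detected on all 4 arrays, 38.4% had a lower mean in *Meis1*-deficient cells. The part of such cells in the *Cxcl12* signal was not tested.

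*Hnf4a*, a nuclear receptor best known as a regulator of liver, gut and pancreatic genes, differed between its probes. The selected probe (chr2:163398074-163398133) was at -6.25 and -5.30 in *Meis1*-deficient cells, where its signal was not significantly above background on either array, and at -1.99 and -2.03 in control cells. The bound was a fall of at least 3.29-fold. A second probe, 2009 bases upstream at chr2:163396065-163396124, was detected on all 4 arrays, at 0.51 and 1.29 in *Meis1*-deficient and 0.27 and 0.87 in control cells. Its mean was 0.33 higher in *Meis1*-deficient cells, a difference smaller than that between the slides. The last probe, farther upstream, was not detected on any array. Detection in control cells alone thus held for 1 of the 3 *Hnf4a* probes and not for the probe that was detected throughout.

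*Pou6f1*, a POU and homeobox transcription factor, resembled the selected *Hnf4a* probe. Its probe (chr15:100405907-100405966, minus strand) read -5.99 and -5.15 in *Meis1*-deficient cells, without significant signal on either array, and -1.91 and -2.45 in control cells, at least 2.93-fold lower. Its other probe was not detected on any array, nor was *Hnf4g*, the paralog of *Hnf4a*.

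*Gpr155*, a multi-pass membrane protein of the lysosome, was at -4.21 and -3.87 against -1.59 and -2.25 (chr2:73179688-73179747, minus strand), at least 3.51-fold lower. *Slc35f3*, of a solute carrier family related to nucleotide sugar transporters, stood at -5.95 and -3.76 against -2.21 and -2.38, at least 2.70-fold lower. The relatives *Slc35f2* and *Slc35f5* were detected on all 4 arrays, with mean differences of -0.70 and 0.49. *Cd300lf*, an inhibitory receptor of myeloid cells, was at -4.80 and -5.20 against -2.37 and -2.46, at least 2.49-fold lower. Within the same gene family, *Cd300a* and *Cd300e* were detected throughout with means 0.43 and 0.23 higher in *Meis1*-deficient cells, and *Cd300c*, *Cd300lb* and *Cd300ld* on no array. *Fam184b*, which encodes a coiled-coil protein, read -4.31 and -3.74 against -2.38 and -2.03, at least 2.87-fold lower. Its second probe was detected in sample 2 of both genotypes and was higher in *Meis1*-deficient sample 2, at -2.94, than in control sample 2, at -3.43.

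Of the 3 probes without a gene symbol, A_51_P264914 is annotated to an envelope transcript of mouse mammary tumor virus, of which laboratory mice carry inherited copies. It read -4.19 and -3.98 in *Meis1*-deficient and -2.15 and -2.22 in control cells. A neighboring probe for the same transcript, which was not selected, was detected on all 4 arrays, at -1.81 and -1.61 against -0.38 and -0.58. That probe was thus lower without *Meis1* too but still detected, while the gap on the selected probe follows from the selection. The other 2 are named here because only these remained, after their values had been seen. K02899, annotated to an aberrantly rearranged T-cell receptor gamma transcript (chr13:19397039-19399117, minus strand), stood at -4.73 and -4.13 against -2.35 and -2.20, and AK085487, an unclassified transcript, at -3.89 and -5.28 against -2.03 and -2.47. Of 28 T and NK lineage genes, 13 were detected in both control and 10 in both *Meis1*-deficient samples, and their summed level was 15.6 and 19.5 in control and 13.8 and 20.9 in *Meis1*-deficient cells. *Cd3e*, *Cd3g*, *Cd4*, *Zap70*, *Prf1* and *Ncr1* were those with no array on which all of their spots were well above background. *Lat*, *Gata3*, *Nkg7* and *Cd27* were among those detected on all 4 arrays. The 9 detected on all 4 arrays had 5 lower and 4 higher means in *Meis1*-deficient cells, from -0.90 for *Klrb1c* to 0.82 for *Gzmb*. *Icos*, *Cd8a* and *Lck* were detected in both control samples and 1 *Meis1*-deficient sample, and *Cd5* in both *Meis1*-deficient samples and neither control sample. The part of such cells in the K02899 signal was not tested.

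The selected probes can be set beside the other probes of the same genes. Of the 9 names with further probes on the array, 7 had the selected probe as their most 3′ one on mm9, which were *Cxcl12*, *Gpr155*, *Hnf4a*, *Pou6f1*, *Fam184b*, *Slc35f3* and *Cd300lf*. The 12 further probes comprised 7 detected on no array, 2 on all 4 (*Hnf4a* and the viral transcript), 2 on 3 arrays (*Ppp1r16b*) and 1 on 2 arrays (*Fam184b*). Outside *Trib2*, then, no gene was detected in control cells alone on more than 1 probe, and the other probes of 5 genes, *Cxcl12*, *Gpr155*, *Pou6f1*, *Slc35f3* and *Cd300lf*, gave no detected signal in either genotype.

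All 14 probes were dim. Their signals were 28.3 to 75.8 intensity units in control sample 1 and 27.8 to 148 in control sample 2, where the 75th percentiles of the arrays were 147 and 154. In *Meis1*-deficient samples 1 and 2 they were 1.95 to 9.99 and 2.30 to 11.5. Not well above background did not mean without signal, since 9 of the 14 were significantly above background by a more lenient flag on both *Meis1*-deficient arrays, 3 on 1 of them and 2, *Hnf4a* and *Pou6f1*, on neither. With this flag in place of the stricter one, 2 probes met the rule. The control samples were under 0.5 apart on the log2 scale for 8 probes and over 1 apart for 2, those of *Slc22a3* and the first of *Trib2*. The median difference, *Meis1*-deficient minus control, was -2.54 over the 14 probes and 0.08 over all 22007 probes tested. It was -2.74 within slide 1 and -2.32 within slide 2.

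The study called genes by an unadjusted p under 0.01 and a change of more than 2-fold. With limma over all 22007 probes, 13 of the 14 met these criteria as lower, all but *Slc35f3*, and 0.600% of all tested probes did (132 probes). With the slide as a block, 14 of 14 did, against 1.40% of all tested probes (307). Since detection in one genotype alone selected the probes, these counts are given for reference only and nothing is read from them. They also depended on the test, since the methods' t-test called 2 of the 14, limma with an intensity trend 7, limma with either control array left out 5, and limma after normexp background correction 0. In limma without the block, 0 probes of the array had an adjusted p under 0.05 and 618 an unadjusted p under 0.05, and by the methods' t-test the numbers were 0 and 528. With the block, 50 probes passed the adjusted threshold, 5 of the 14 among them.

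The level of -2.5 falls within a continuous series of probes. Just inside it, the lower control array read -2.45 for *Pou6f1*, -2.46 for *Cd300lf* and -2.47 for AK085487. Just outside, it read -2.55 for *Ppargc1b*, -2.56 for *Sema7a* and -2.57 for *Aif1*. *Sema7a*, a membrane-bound semaphorin, had -4.34 and -5.32 in *Meis1*-deficient and -2.56 and -1.46 in control cells. With the flags alone and no level, 270 probes were detected only in control cells and 106 only in *Meis1*-deficient cells. At the level of -2.5 the reverse rule gave 2 probes. *Olfr414*, an odorant receptor gene, was at -1.46 and -1.18 in *Meis1*-deficient and -4.37 and -4.16 in control cells, and *Rap1gap2*, an activator of GTP hydrolysis by Rap1, at -2.12 and -1.56 against -4.64 and -4.19. The ratio of 14 to 2 depended on which arrays were used. Within slide 1, with 1 array of each genotype, 105 probes were detected in control alone and 71 in *Meis1*-deficient alone. Within slide 2, which held the dimmest array, the numbers were 1361 and 520. Without *Meis1*-deficient sample 2, the rule gave 28 control-only and 30 *Meis1*-deficient-only probes, and without *Meis1*-deficient sample 1 it gave 769 and 294. The part of the dimmer array in the ratio was not tested.

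The gene lists that hold selected probes are those of stromal markers, of growth factors and secreted signals and of stem cell regulators. Among 54 growth factors and secreted signals, 31 were detected in both control samples and 20 in both *Meis1*-deficient ones, on the brightest probe of each gene, and 8 were detected in control cells alone by the flags. Over all 28089 names on the array, taken by their brightest probe in the same way, 174 were, or 0.619%. These 8 were *Cxcl12*, *Sema7a*, *Pgf*, *Fgf13*, *Inhba*, *Dlk1*, *Il7* and *Sema4a*, named after their values had been seen. *Il10*, a probe with replicate spots of which only some were well above background in *Meis1*-deficient cells, is not counted among them or in the plasma cell list. The 8 entered the fit through the control arrays alone, so no count of calls among them is given. Of the 19 genes of the list detected on all 4 arrays, 13 had a lower and 6 a higher mean in *Meis1*-deficient cells, with a median difference of -0.27, and 0 met the criteria in either direction. Over the 18850 probes detected on all 4 arrays, 38.4% had a lower mean, the median was 0.13, and 0.143% met the criteria as lower (27 probes). *Inhba*, which encodes the activin A subunit, was at -5.33 and -5.44 in *Meis1*-deficient and -2.71 and -3.14 in control cells. *Fgf13*, a fibroblast growth factor homologue that acts inside the cell, was at -4.75 and -5.54 against -2.74 and -2.77. *Pgf*, placental growth factor, was at -5.22 and -5.42 against -3.26 and -3.08, and *Dlk1*, a Notch-related membrane protein, at -4.88 and -5.55 against -3.33 and -3.58. These genes are listed for their detection in control cells alone, so the gap between genotypes follows from how they were chosen.

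Among the stem cell regulators, where *Trib2* stands, 39 of 43 genes were detected in both control and 35 in both *Meis1*-deficient samples. Of the 35 detected on all 4 arrays, 24 had a lower and 11 a higher mean in *Meis1*-deficient cells, with a median difference of -0.18, where 38.4% of all probes so detected were lower. Among them 2 met the criteria as lower, *Hlf* and *Hmga2*, and 0 as higher, beside the 0.143% of all probes so detected that met them as lower. *Trib2* was the only gene of this list detected in control cells alone. The list holds *Meis1* itself and genes that the study reported as reduced in these arrays, *Hlf*, *Hmga2* and *Trib2* among them. Its counts are therefore not independent of these data and are given for description only. Medians over genes detected on all 4 arrays ranged across the 15 lists from -0.67 for dendritic cell and MHC class II genes to 0.36 for S phase genes, so those of growth factors and stem cell regulators lay within the range of the others. In some of the other lists, 1 gene each was detected in control cells alone, beside 0.619% of all names on the array. These were *Lifr* of 39 HSC surface receptors, *Gimap7* of 25 lymphoid-primed genes and *Gzma* of 28 T and NK genes. *Il1rl1* of 34 granulocyte, monocyte and mast cell genes, *Cxcl12* of 35 stromal genes and *Gbp4* of 40 interferon-stimulated genes were the rest. All were named after their values had been seen. The count was 0 among B lineage, plasma cell, megakaryocyte, erythroid, dendritic cell, immediate early and S phase genes. For the granulocyte, monocyte and mast cell list, relevant to *Cd300lf*, the summed level was 227 and 91.8 in control and 202 and 152 in *Meis1*-deficient cells, which overlap.

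The nearest protein-coding genes on either side that the array covers, in the gene order of GRCm38.p6, numbered 20 for the 10 genes with a RefSeq symbol. Of these, 14 were detected on all 4 arrays, 3 on none, and 0 in control cells alone. Their differences, over those detected on all 4, ran from -0.93 for *Lpin1*, next to *Trib2*, to 0.63 for *Fam83d*, next to *Ppp1r16b*, with a median of 0.04, and 0 met the criteria. Over the array, 270 of 41174 probes were detected in control cells alone by the flags. Of the 18850 probes detected on all 4 arrays, 0.143% met the criteria as lower. At such shares, counts of 0 among so few neighbors carry little information. The selected probes lay on 10 chromosomes, with 3 each on chromosomes 2 and 12.

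Promoter sequences were read from RefSeq (GRCm38.p6), as windows of 250 bases before to 50 bases after each gene's start, for all 10 named genes. The core motif of Meis factors, TGACAG, searched on both strands, occurred in the windows of 3 genes, *Trib2*, *Slc22a3* and *Gpr155*, that is in 3 of 13 windows, and in 19.2% of all 32851 windows. Its first base lay at -161 for *Trib2*, at -24 on the opposite strand for *Slc22a3* and at 40 for *Gpr155*. TGATTGAC, a composite of Pbx and Meis sites, was found in 0 of the 13 windows and in 0.77% of all, and TGATTNAT, a composite of Pbx and Hox sites, in 1 of 13, at -184 of *Trib2*, and in 3.22% of all. A match is a run of letters and not a measured binding site. The 250 bases before the start of the 2 genes with the largest bounds on the fold are given with TGACAG, or its reverse complement CTGTCA, in capitals.
Trib2 promoter (GRCm38.p6 chr12:15816786-15817035, minus strand): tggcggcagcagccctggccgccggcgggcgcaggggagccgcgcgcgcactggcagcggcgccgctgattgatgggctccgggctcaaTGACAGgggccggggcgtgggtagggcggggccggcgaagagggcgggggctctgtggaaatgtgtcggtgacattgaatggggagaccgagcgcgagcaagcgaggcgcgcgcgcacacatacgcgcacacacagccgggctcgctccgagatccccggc
Slc22a3 promoter (GRCm38.p6 chr17:12507705-12507954, minus strand): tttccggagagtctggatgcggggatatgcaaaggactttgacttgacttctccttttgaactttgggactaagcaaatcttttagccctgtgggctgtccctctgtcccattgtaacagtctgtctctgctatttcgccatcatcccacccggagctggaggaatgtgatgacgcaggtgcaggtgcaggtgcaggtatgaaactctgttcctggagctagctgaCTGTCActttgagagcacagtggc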

How the data were processed

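LSK cell RNA (10 ng per array) was amplified and Cy3-labeled for hybridization to 4 one-color mouse arrays. The authors deposited the intensity of each spot as written by Feature Extraction 9.5.3.1, with the background subtracted, the trend across the array removed, and a surrogate value where a spot was not above background. Their table of the series holds the same intensities, rounded. Probe positions are those of the array's annotation on mm9, and exons were not assigned here. Names of 11 of the 14 probes matched RefSeq.

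From these values, outlier spots and the array's own controls were dropped, replicate spots of a probe were averaged, and log2 values had the 75th percentile of the array subtracted. A probe entered the test if both arrays of at least 1 genotype had flagged it as well above background. For the comparison of genotypes, limma 3.58.1 (lmFit and eBayes, R 4.3.3) was fitted with genotype as its single term, and p-values were adjusted over 22007 probes by Benjamini-Hochberg. Same-numbered arrays shared a slide, per the file headers, and their deviations from the genotype means correlated at 0.266, so the replicate number was used as a block in an alternative. Pools are the replicates, and precision is limited by their number and by the signal over background.

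Named genes are the selected probes with a symbol, with their other probes. Members, lists and relatives were chosen with earlier results of these data known. Some single genes are not reported here.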

Additional observations from a re-analysis of the deposited data

How the results depend on the processing

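The number of control-only probes was 14 and of *Meis1*-deficient-only probes 2. At a level of -3 these were 50 and 13, at -2 they were 5 and 1, with the flags alone 270 and 106, and with the more lenient flag 2 and 0. With the immunoglobulin loci kept, 22 probes were control-only. Leaving out 1 array in turn gave 28 to 769 control-only and 21 to 294 *Meis1*-deficient-only probes, because fewer arrays must then meet the rule. Within slide 1 and slide 2, a split added after seeing the data, the counts were 105 and 71, and 1361 and 520. Median scaling, quantile scaling, outlier spots kept and, added after seeing the data, the percentile over probes gave 11 to 14 control-only and 2 *Meis1*-deficient-only probes.

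The median difference of -2.54 became -0.15 under normexp background correction, which adds an offset of 50, above most of these probes' signals, and all 14 remained lower. Leaving out 1 array gave -2.84 to -2.16. Members meeting the study's criteria numbered 13. They were 0 under normexp, 2 by the methods' t-test, 7 with an intensity trend, 14 with the replicate block, and 5 to 14 with 1 array left out (5 without either control array), a fit in which a single array takes its spread from the other genotype. Quantile scaling gave 10, and median scaling, the authors' table, no filter on dim probes and outlier spots kept gave 13. The cause of these differences was not tested otherwise. With 2 pools per genotype and signals near background, the sizes of the falls are not resolved beyond the bounds given, which are not strict limits.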
